A study of Mus musculus with 9 samples.

Results

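Keratins are the intermediate filament proteins of epithelial cells, and keratin-associated proteins are the small proteins that bind them together in the hair shaft. The array carried 96 probe sets, each with a single gene symbol that begins with Krt or Krtap followed by a number, of 24922 in all. Of these, 52 were keratins and 44 were keratin-associated proteins, no symbol occurred more than once, and 14 further sets whose annotation lists several symbols were left out. They were followed here over RNA from innate lymphoid cells (ILCs), lymphocytes without rearranged antigen receptors, sorted from mouse skin.

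There were 9 arrays, each on 1 sorted sample. The samples were 2 of GFP+ and 3 of GFP- ILCs from Rag1-/- CCR10+/EGFP mice, and 2 of GFP+ and 2 of GFP- ILCs from CCR10+/EGFP mice with intact Rag1, named Rag1-sufficient below. All mice were female and on the B6 background, the age was not given, and all carried EGFP at a single Ccr10 allele, so that GFP stands for the chemokine receptor CCR10. Rag1 encodes part of the recombinase that T and B lymphocytes need. Per the labels, cells were sorted as CD45.2+, CD3- and negative for a panel of lineage markers, and no epithelial marker was named in that panel. The labels do not state that replicates were separate animals, and the p-values below reflect sample-to-sample spread alone, some of which may be technical.

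Across the arrays the median intensity lay between 74.1 and 77.6. The ILC regulator Id2 read 6727 to 7905, the interleukin-7 receptor gene Il7r 2566 to 3806 and the CD45 gene Ptprc 1052 to 1705 over all arrays. Rag1 read 28.4 to 31.4 on every array, below the filter on dim sets, and so gave no check of the genotype. Ccr10 read 148 and 96.5 in Rag1-/- GFP+ and 103, 125 and 109 in Rag1-/- GFP- samples, and 163 and 130.3 in Rag1-sufficient GFP+ and 129 and 126 in Rag1-sufficient GFP- samples. The GFP+ and GFP- values overlapped in Rag1-/- mice and nearly met in Rag1-sufficient mice, so Ccr10 gave little check of the gate.

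A keratin filament is built from pairs of a type I and a type II keratin. Basal cells of the epidermis make Krt5 with Krt14, and Krt15 besides. Cells that leave the basal layer switch to Krt1 with Krt10. The hair follicle has sets of its own, in the inner root sheath and in the hair shaft, and the shaft adds keratin-associated proteins rich in cysteine or in glycine and tyrosine. Simple epithelia and Merkel cells use Krt8 with Krt18. Lymphocytes are not known for epidermal keratins, and for that reason keratin transcript in a sorted lymphocyte sample is often read as a measure of epidermal material. In bulk samples fewer epithelial cells and less keratin RNA per cell cannot be told apart.

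A small group of epidermal keratins varied widely between arrays, while the remaining members were close to flat. The filter removed the 30% of all probe sets with the lowest mean, which lay below an intensity of about 41.6, and 53 members passed it (34 keratins and 19 keratin-associated proteins). In 8 of the 53 the highest array exceeded the lowest by more than 2.5-fold, a limit chosen after the values were seen. These were Krt10 (9.69-fold), Krt14 (8.08-fold), Krt5 (6.28-fold), Krt17 (5.60-fold), Krt77 (4.08-fold), Krt79 (4.00-fold), Krt1 (3.01-fold) and Krt15 (2.88-fold). The other 45 spanned between 1.08-fold and 2.06-fold. Over all sets past the filter 6.30% spanned more than 2.5-fold, and the median span was 1.44-fold, against 1.42-fold for the members. All 8 were highest on a single array, Rag1-sufficient GFP- replicate 2.

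**Figure D1:**
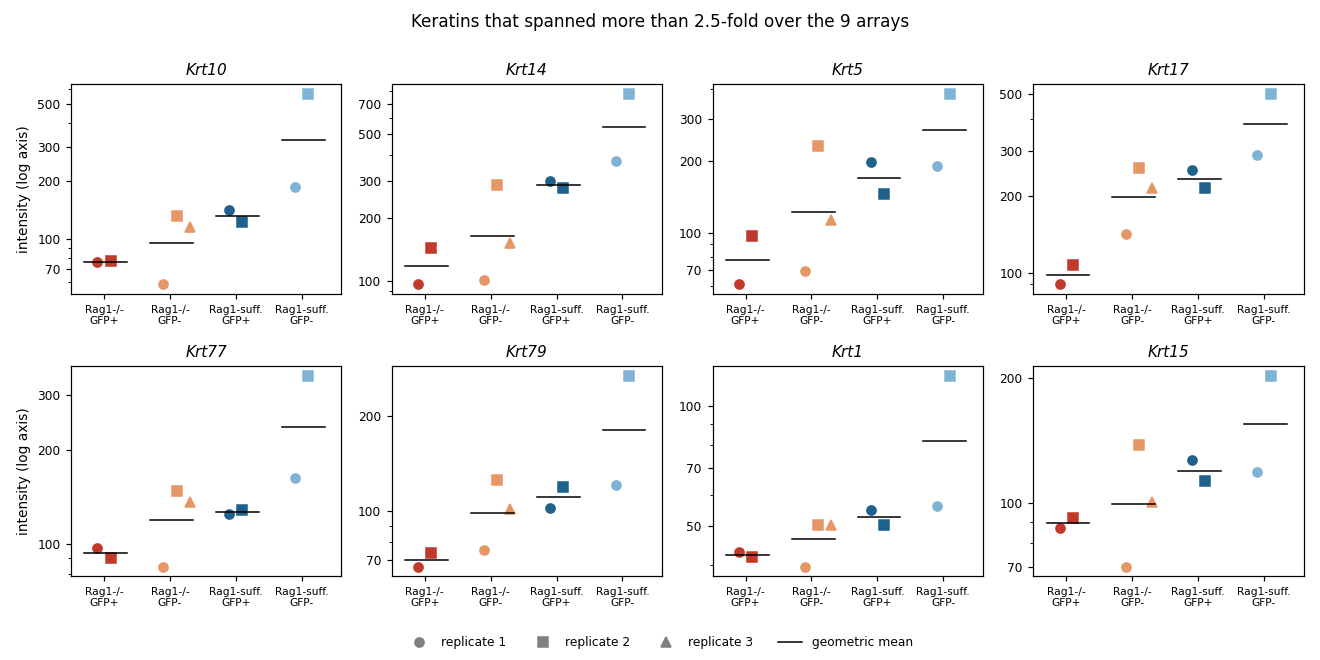
Intensity (log axis) of the 8 keratins that spanned more than 2.5-fold, in each sample of the 4 groups, with symbols for the replicates and a line at each group's geometric mean. Rag1-sufficient GFP- replicate 2 is the highest point in every panel, with Krt14 at 782 and Krt10 at 567, and both Rag1-/- GFP+ samples lie below both Rag1-sufficient GFP+ samples in every panel.

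The sequences upstream of 5 members are shown because these genes stand for the patterns described below: Krt5, Krt14 and Krt10 were highest on Rag1-sufficient GFP- replicate 2, and the root sheath keratins Krt25 and Krt71 on Rag1-/- GFP+ replicate 1. Each is the 250 bases before the RefSeq gene start in GRCm38.p6, written 5′ to 3′ on the gene's strand, and capitals mark TATAAA, the TATA box letters.
Krt5, chr15:101712906-101713155, minus strand: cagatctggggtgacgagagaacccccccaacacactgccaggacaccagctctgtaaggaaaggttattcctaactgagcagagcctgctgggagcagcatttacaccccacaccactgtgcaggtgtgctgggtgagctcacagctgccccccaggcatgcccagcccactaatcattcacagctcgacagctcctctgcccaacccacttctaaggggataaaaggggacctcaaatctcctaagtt
Krt14, chr11:100206031-100206280, minus strand: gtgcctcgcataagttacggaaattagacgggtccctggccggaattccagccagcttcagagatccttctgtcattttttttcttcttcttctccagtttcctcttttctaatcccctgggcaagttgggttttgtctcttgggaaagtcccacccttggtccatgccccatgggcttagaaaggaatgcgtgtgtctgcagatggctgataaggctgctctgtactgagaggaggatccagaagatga
Krt10, chr11:99389365-99389614, minus strand: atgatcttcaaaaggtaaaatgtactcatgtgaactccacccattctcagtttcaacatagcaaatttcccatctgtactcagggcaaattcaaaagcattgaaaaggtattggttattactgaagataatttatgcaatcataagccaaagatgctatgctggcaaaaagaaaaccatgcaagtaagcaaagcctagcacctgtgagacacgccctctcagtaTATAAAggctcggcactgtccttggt
Krt25, chr11:99322952-99323201, minus strand: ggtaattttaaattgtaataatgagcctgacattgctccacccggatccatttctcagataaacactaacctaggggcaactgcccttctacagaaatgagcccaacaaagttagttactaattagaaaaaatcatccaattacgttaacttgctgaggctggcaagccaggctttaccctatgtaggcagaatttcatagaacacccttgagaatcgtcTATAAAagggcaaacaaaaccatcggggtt
Krt71, chr15:101743098-101743347, minus strand: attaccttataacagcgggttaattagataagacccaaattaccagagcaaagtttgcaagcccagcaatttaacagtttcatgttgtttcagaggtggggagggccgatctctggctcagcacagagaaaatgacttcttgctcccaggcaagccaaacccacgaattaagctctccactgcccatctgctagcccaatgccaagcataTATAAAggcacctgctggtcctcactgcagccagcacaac
The windows of Krt10, Krt25 and Krt71 each held 1 such match, 26, 30 and 40 bases before the start, and those of Krt5 and Krt14 held none.

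RefSeq promoter windows of this kind were matched to 76 of the 96 members. TATAAA, read on both strands in the 250 bases, was present in 31 of 40 keratin-associated protein genes (77.5%) and in 17 of 36 keratin genes (47.2%), against 14.3% of all 27025 genes with a window. Among the keratins it was in 7 of 8 root sheath genes, 6 of 9 hair shaft genes and 1 of 4 simple epithelial genes, and in 0 of 2 basal and 0 of 6 other differentiation genes. Of 5 other motifs read on both strands, CTTTGAA, the core of LEF and TCF sites, was in 5 of 9 hair shaft genes, 7 of 40 keratin-associated protein genes (17.5%) and 5.19% of all genes. GGGCGG, the core of Sp1 sites, was in 2 of 76 members (2.63%) and in 35.4% of all genes. CCAAT was in 36.8% of members and 37.5% of all genes, the AP-1 site TGANTCA in 11.8% and 7.82%, and the AP-2 site GCCNNNGGC in 7.89% and 15.4%. No motif of these 6 contains another. The motifs were chosen after the members' levels were known, a match is a description of the letters, and no test was made.

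In the GRCm38.p6 order of protein-coding genes 83 of the 95 members found lie next to another member. Noncoding genes and pseudogenes were left out of that order. Krt14, Krt16, Krt17 and Krt42 follow one another without another protein-coding gene between them. Krt14 and Krt17 belonged to the widely varying group, while Krt16, a keratin of activated epidermis, stayed between 38.1 and 45.3 and Krt42 between 79.7 and 92.6. Krt5 and Krt71 are also neighbours, and they were highest on different arrays. Other neighbours shared their highest array: Krt1 and Krt77 on Rag1-sufficient GFP- replicate 2, and Krt8 and Krt18 on Rag1-/- GFP+ replicate 1.

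Among the basal keratins, Krt14, the type I partner of the basal layer, read 96.8 and 144 in Rag1-/- GFP+ and 101, 286 and 152 in Rag1-/- GFP- samples, and 300.5 and 277 in Rag1-sufficient GFP+ and 375 and 782 in Rag1-sufficient GFP- samples. Krt5, its type II partner, read 61.2 and 97.8 in Rag1-/- GFP+ and 69.5, 232 and 114 in Rag1-/- GFP-, and 199 and 146 in Rag1-sufficient GFP+ and 191 and 384 in Rag1-sufficient GFP- samples. Krt15, found in basal cells and in the follicle bulge, read 87.0 and 91.6 in Rag1-/- GFP+ and 70.1, 137 and 101 in Rag1-/- GFP-, and 126 and 113 in Rag1-sufficient GFP+ and 118 and 202 in Rag1-sufficient GFP- samples. For each of the 3 genes Rag1-sufficient GFP- replicate 2 was the highest array, and within the Rag1-/- GFP- group replicate 2 stood above replicates 1 and 3. The spread inside the GFP- groups was therefore large: Krt14 averaged 179.9 ± 95.7 (SD, n = 3) in Rag1-/- GFP- samples and 579 ± 287 (SD, n = 2) in Rag1-sufficient GFP- samples.

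The suprabasal pair followed the same array. Krt10, the type I partner, read 75.9 and 77.1 in Rag1-/- GFP+ and 58.5, 131 and 116 in Rag1-/- GFP-, and 141 and 124 in Rag1-sufficient GFP+ and 187 and 567 in Rag1-sufficient GFP- samples. Krt1, the type II partner, was dimmer and read 42.9 and 41.7 in Rag1-/- GFP+ and 39.6, 50.3 and 50.3 in Rag1-/- GFP-, and 55.0 and 50.4 in Rag1-sufficient GFP+ and 56.1 and 119 in Rag1-sufficient GFP- samples. Rag1-sufficient GFP- replicate 2 stood at 4.73 times the median of the other arrays for Krt10 and at 2.37 times for Krt1, compared with 3.64 times for Krt14, 2.96 times for Krt5 and 1.90 times for Krt15. For Krt1 the other 8 arrays lay between 39.6 and 56.1, close to the filter limit.

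Of the 5 keratins of activated epidermis and appendages, Krt17, Krt79 and Krt16 passed the filter. Krt17, made in the outer root sheath and in wounded epidermis, read 90.0 and 107 in Rag1-/- GFP+ and 142, 258 and 214 in Rag1-/- GFP-, and 253 and 214 in Rag1-sufficient GFP+ and 289 and 504 in Rag1-sufficient GFP- samples. Krt79, made in the upper hair follicle, read 66.9 and 74.0 in Rag1-/- GFP+ and 75.5, 125 and 102 in Rag1-/- GFP-, and 103 and 119.5 in Rag1-sufficient GFP+ and 121 and 268 in Rag1-sufficient GFP- samples. Both stood lower in Rag1-/- GFP+ than in Rag1-/- GFP- samples without overlap, as did 10.1% of all sets past the filter. For Krt79 the nearest values, 74.0 and 75.5, almost met. Krt6a and Krt6b, the type II keratins induced with Krt16 and Krt17 in wounds, lay below the filter, at 26.7 to 35.1 and 10.9 to 14.1.

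Of the 7 other differentiation keratins, Krt77, Krt80 and Krt78 passed the filter. Krt77, a type II keratin of the epidermis, read 97.5 and 90.3 in Rag1-/- GFP+ and 84.8, 148 and 136 in Rag1-/- GFP-, and 125 and 129 in Rag1-sufficient GFP+ and 163 and 346 in Rag1-sufficient GFP- samples. Krt80 ranged from 96.1 to 141 with a median of 116, and Krt78 from 44.6 to 56.0 with a median of 51.4. Krt80 was also highest on Rag1-sufficient GFP- replicate 2, by 1.23 times the median of the other arrays. Krt2, a late differentiation keratin, and Krt9, the keratin of palms and soles, lay below the filter, at 25.4 to 34.3 and 27.5 to 31.0.

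The heat map of all members past the filter shows these keratins as a block apart from the rest. Of the 53, 22 were highest on Rag1-sufficient GFP- replicate 2 (41.5%) and 18 on Rag1-/- GFP+ replicate 1 (34.0%). Over all sets past the filter those shares were 10.4% and 16.2%. The 131 olfactory receptor sets past the filter, genes that skin lymphocytes are not known to use and that serve here as a reading of dim probe sets, were highest on Rag1-sufficient GFP- replicate 2 in 45.8% and on Rag1-/- GFP+ replicate 1 in 19.1%. The share for Rag1-sufficient GFP- replicate 2 therefore lies near that of these olfactory receptor sets. They are the 131 of 1035 that were bright enough to pass the filter. The members' share pools 10 of 19 keratin-associated proteins with 3 of 3 basal and 2 of 2 suprabasal keratins. It does not show how far that array stood above the others.

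**Figure D2:**
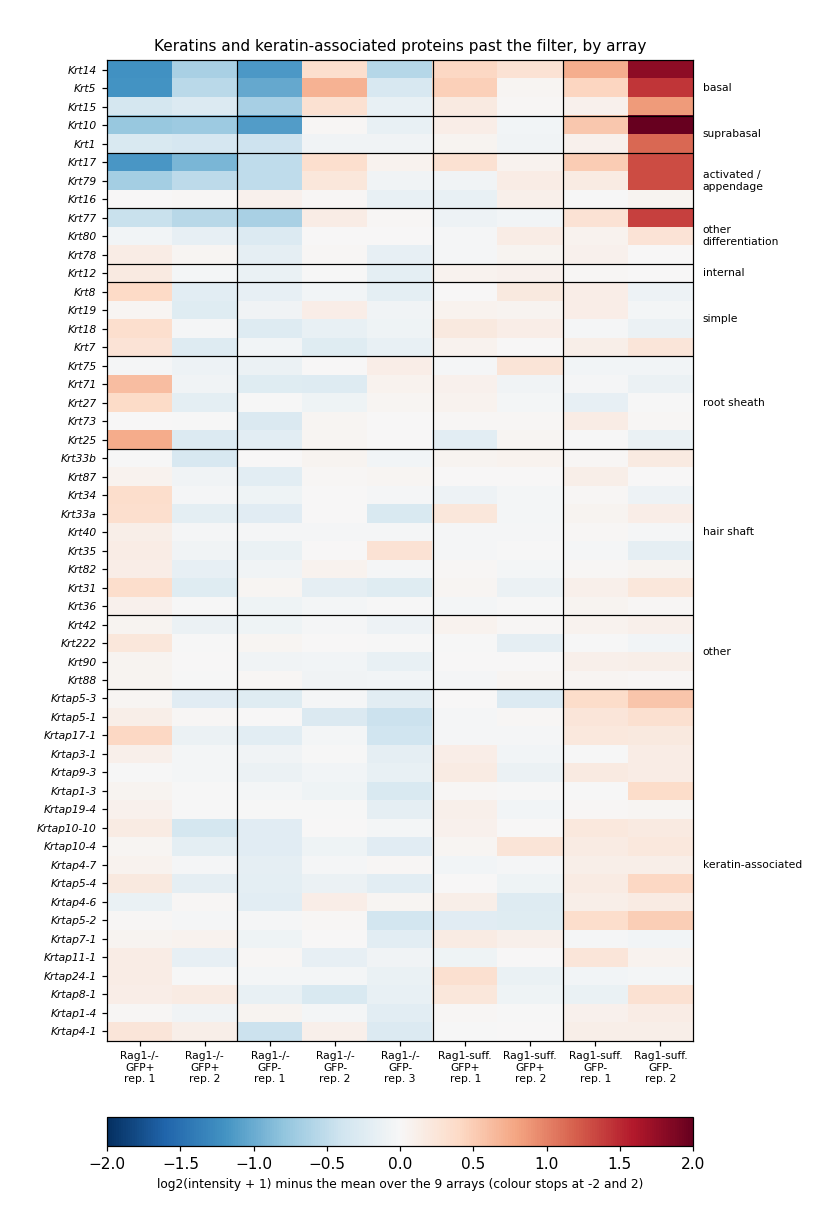
Each row is 1 of the 53 members past the filter, grouped by class, and each column is 1 array. Colour gives log2(intensity + 1) minus the row's mean over the 9 arrays. The strong colours are in the basal and suprabasal rows and in Krt17, Krt79 and Krt77, with the deepest red on Rag1-sufficient GFP- replicate 2, and a weaker red runs through Krt71, Krt25, Krt27 and Krt8 on Rag1-/- GFP+ replicate 1.

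Some keratins of the inner root sheath had a different high array, unlike Krt17 and Krt79, which are also made in the follicle. Of the 9 root sheath keratins measured, Krt75, Krt71, Krt27, Krt73 and Krt25 passed the filter. Krt71, the type II keratin of the inner root sheath, read 112 and 69.7 in Rag1-/- GFP+ and 61.3, 60.6 and 76.7 in Rag1-/- GFP-, and 77.8 and 69.5 in Rag1-sufficient GFP+ and 72.0 and 66.9 in Rag1-sufficient GFP- samples. Krt25, a type I partner in the same layer, read 72.6 and 35.3 in Rag1-/- GFP+ and 36.8, 44.1 and 43.1 in Rag1-/- GFP-, and 36.9 and 44.2 in Rag1-sufficient GFP+ and 42.7 and 38.8 in Rag1-sufficient GFP- samples. Krt27, another type I keratin of the inner root sheath, read 86.8 on Rag1-/- GFP+ replicate 1 and 57.7 to 69.4 on the other arrays. On Rag1-/- GFP+ replicate 1 Krt25 stood at 1.78 times, Krt71 at 1.62 times and Krt27 at 1.33 times the median of the other arrays. On that same array Krt14 stood at 0.343 times and Krt5 at 0.363 times the median of the others. Krt75, the keratin of the companion layer between the root sheaths, was highest on Rag1-sufficient GFP+ replicate 2, at 92.6, and ranged down to 70.9.

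Trichohyalin, encoded by Tchh, is the matrix protein that inner root sheath keratins are embedded in and is no keratin itself. It read 149 and 89.2 in Rag1-/- GFP+ and 79.3, 78.0 and 73.4 in Rag1-/- GFP-, and 99.9 and 83.1 in Rag1-sufficient GFP+ and 114 and 93.9 in Rag1-sufficient GFP- samples. Rag1-/- GFP+ replicate 1 was thus the highest array for Tchh as well, at 1.73 times the median of the others. Of the 8 follicle genes outside the keratins that passed the filter, 3 were highest on that array (Tchh, Padi3 and Dlx3) and another 3 on Rag1-sufficient GFP+ replicate 2 (Msx2, Hoxc13 and Shh). Over all sets past the filter those shares were 16.2% and 10.1%. Mast cell markers also set Rag1-/- GFP+ replicate 1 apart from its replicate, with a summed intensity of 4829.9 against 1335 on replicate 2 and 4729 to 6061 in Rag1-/- GFP- samples. Cpa3, a mast cell protease gene, read 2085 on replicate 1 and 19.9 on replicate 2. Whether mast cell or other RNA on that array bears on the root sheath values was not tested.

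**Figure D3:**
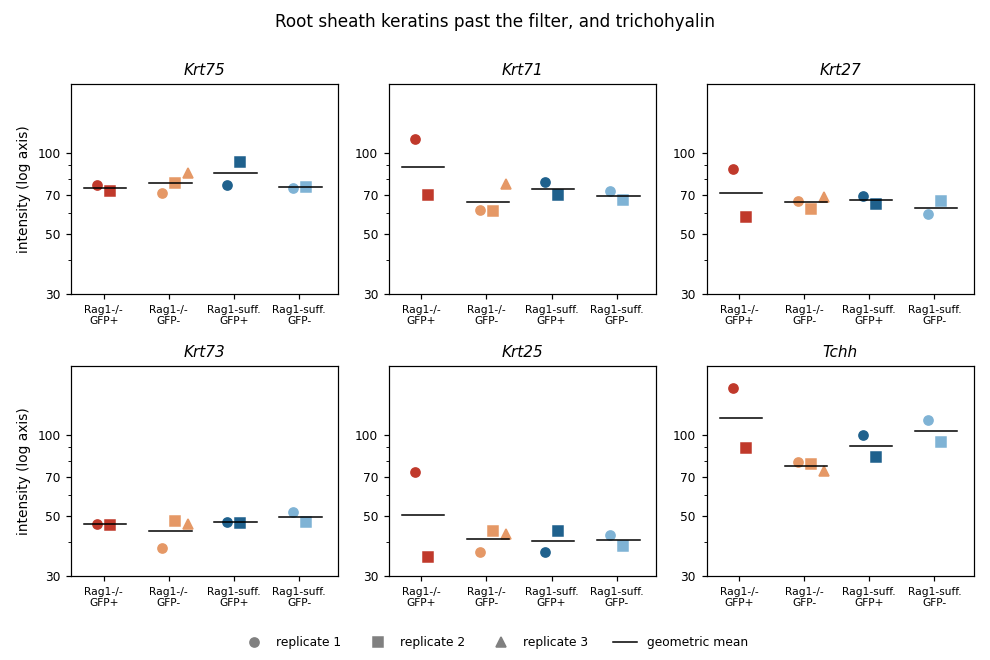
Intensity (log axis, the same range in every panel) of the 5 root sheath keratins past the filter and of Tchh, in each sample of the 4 groups, with a line at each group's geometric mean. Rag1-/- GFP+ replicate 1 is the highest point for Krt71 (112), Krt27 (86.8), Krt25 (72.6) and Tchh (149), and not for Krt75 or Krt73.

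Hair shaft keratins varied little. Of 13 measured, 9 passed the filter, and 6 of these were highest on Rag1-/- GFP+ replicate 1 (66.7%). The share was 16.2% over all sets past the filter and 19.1% over olfactory receptor sets. Of the 4 simple epithelial keratins past the filter, 3 were highest on that array as well. The brightest sets were Krt33b, Krt87, Krt34 and Krt33a. Krt33b, a type I keratin of the hair cortex, ranged from 149 to 212 with a median of 190.2. Krt87 ranged from 134 to 169 with a median of 157. Krt34, another type I cortex keratin, read 146 on Rag1-/- GFP+ replicate 1 and 106 to 116 on the other arrays. Krt33a ranged from 58.1 to 90.6, and since its sequence is close to that of Krt33b their probes may read both genes.

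Of the 5 keratins of simple epithelia, Krt8, Krt19, Krt18 and Krt7 passed the filter. Krt8 read 184 and 119.7 in Rag1-/- GFP+ and 125, 134 and 121 in Rag1-/- GFP-, and 140.2 and 160.3 in Rag1-sufficient GFP+ and 153 and 129 in Rag1-sufficient GFP- samples. Its partner Krt18 read 65.1 and 50.3 in Rag1-/- GFP+ and 42.5, 46.4 and 48.2 in Rag1-/- GFP-, and 58.7 and 56.5 in Rag1-sufficient GFP+ and 50.3 and 47.0 in Rag1-sufficient GFP- samples. For this pair the highest array was Rag1-/- GFP+ replicate 1, not the array that led the epidermal keratins. Krt19 ranged from 44.9 to 59.0 and Krt7 from 38.0 to 55.1. Of the 4 internal keratins only Krt12, known from the cornea, passed the filter, at 99.4 to 129. The 4 keratins outside these classes, Krt42, Krt222, Krt90 and Krt88, each spanned less than 1.34-fold.

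Of the 44 keratin-associated proteins 19 passed the filter and 25 did not. The brightest were Krtap5-3 (304 to 544), Krtap5-1 (243 to 407), Krtap17-1 (240.4 to 426) and Krtap3-1 (177 to 223). The Krtap5 genes encode cysteine-rich proteins of the hair, and they resemble one another so closely that their probe sets may share signal. All 4 measured Krtap5 sets past the filter were highest on Rag1-sufficient GFP- replicate 2. Krtap5-2 read 61.0 and 59.5 in Rag1-/- GFP+ and 58.9, 61.3 and 46.4 in Rag1-/- GFP-, and 51.3 and 50.6 in Rag1-sufficient GFP+ and 76.6 and 85.1 in Rag1-sufficient GFP- samples. The Rag1-sufficient GFP- samples were thus above all others for this set. The widest of these 4 sets spanned 1.84-fold. The 43 members below the filter read between 10.9 and 54.1 on every array, and none of them spanned more than 1.63-fold.

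Group comparisons were made with limma on log2(intensity + 1), fitted on all 17445 sets past the filter with a mean for each of the 4 groups, two-sided and with Benjamini-Hochberg adjustment at 0.05. No member passed in any of the 4 comparisons between groups or in the interaction. These comparisons share arrays with one another, so their values are not independent. The 8 widely varying keratins were picked by their span over these same arrays, and Rag1-/- GFP+ replicate 1 was the lowest array for Krt14, Krt5, Krt17 and Krt79, so large differences among them are partly built in and are given as a description. Differences below are on the log2 scale, as estimate ± SE.

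The first question was whether CCR10 reporter-positive and reporter-negative ILCs differed in keratin transcript. In Rag1-/- mice 0 of 53 members passed in limma, and 0% of all sets were called. At an unadjusted p under 0.05 there were 4 members (7.55%), against 6.29% of all sets tested. Members had a median difference of 0.08, against -0.01 over all sets tested, with 37 higher and 16 lower in GFP+ than GFP- samples. Without overlap between the groups, 10 members lay above (5.27% of all sets did) and 2 below (10.1% of all sets), these 2 being Krt17 and Krt79. Olfactory receptor sets went the same way, with 101 of 131 higher, 13.7% wholly above and a median of 0.07. Krt17 had the smallest p, at 98.6 ± 12.2 (SD, n = 2) in GFP+ and 205 ± 58.5 (SD, n = 3) in GFP- samples, a difference of -1.01 ± 0.29 (limma adjusted p = 0.688). Krt14 differed by -0.47 ± 0.44 (limma adjusted p = 0.742), Krt5 by -0.66 ± 0.48 and Krt10 by -0.33 ± 0.46. Without Rag1-/- GFP+ replicate 1, the array with the higher mast cell markers, the difference of Krt17 was -0.89, that of Krt14 -0.19 and that of Krt5 -0.32, and the median over the members was -0.012.

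In Rag1-sufficient mice 0 of 53 members passed in limma, where 0.803% of all sets were called. An unadjusted p under 0.05 was found for 5 members (9.43%), against 12.98% of all sets tested and 6.87% of olfactory receptor sets. The median over the members was -0.06, against 0.01 over all sets tested. Of the members 43 of 53 were lower in GFP+ samples, against 8079 of all 17445 sets. Olfactory receptor sets went the same way as the members, with 108 of 131 lower and a median of -0.09. Without overlap, 5 members lay above (29% of all sets) and 22 below (21.2% of all sets), and 35.9% of olfactory receptor sets also lay below. Krt10 averaged 132 ± 12.7 (SD, n = 2) in GFP+ and 377 ± 269 (SD, n = 2) in GFP- samples, a difference of -1.29 ± 0.50 (limma adjusted p = 0.316). Krt14 averaged 289 ± 16.4 (SD, n = 2) in GFP+ and 579 ± 287 (SD, n = 2) in GFP- samples, a difference of -0.91 ± 0.48 (limma adjusted p = 0.497). Without Rag1-sufficient GFP- replicate 2 the Krt10 difference was -0.49 and the Krt14 difference -0.38, while that of Krt5 moved to -0.17 against -0.67 with it. The smallest adjusted p of any member was that of Krtap5-2, at 50.9 ± 0.471 (SD, n = 2) in GFP+ and 80.9 ± 5.97 (SD, n = 2) in GFP- samples, a difference of -0.65 ± 0.13 (limma adjusted p = 0.0715). It passed without Rag1-/- GFP- replicate 3 (adjusted p = 0.0241) and with array weights (adjusted p = 0.00732). Mast cell markers moved with this gate far more, with summed intensities of 891 and 974 in GFP+ and 10318 and 10482 in GFP- samples over 10 sets, and their part in the Krtap5-2 difference was not tested.

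The second question was whether loss of Rag1 went with a different keratin level. In GFP+ cells 0 of 53 members passed in limma, where 0.246% of all sets were called. At an unadjusted p under 0.05 there were 2 members (3.77%), fewer than the 6.82% of all sets tested. Without overlap, 4 members lay above (11% of all sets) and 13 below (18.5% of all sets), and the 13 held all 8 widely varying keratins. Krt17 averaged 98.6 ± 12.2 (SD, n = 2) in Rag1-/- and 233 ± 27.5 (SD, n = 2) in Rag1-sufficient samples, a difference of -1.24 ± 0.32 (limma adjusted p = 0.346). Krt14 averaged 120.3 ± 33.3 (SD, n = 2) in Rag1-/- and 289 ± 16.4 (SD, n = 2) in Rag1-sufficient samples, a difference of -1.28 ± 0.48 (limma adjusted p = 0.620). Without Rag1-/- GFP+ replicate 1 the Krt17 difference was -1.11 and the Krt14 difference -0.999.

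In GFP- cells 0 of 53 members passed in limma, where 0.143% of all sets were called, while 18 of 53 (34.0%) had an unadjusted p under 0.05, against 17.3% of all sets tested. Members had a median difference of -0.17, with 47 lower and 6 higher in Rag1-/- samples, against a median of 0.00 over all sets. Without overlap, 0 members lay above (23% of all sets) and 28 below (17.6% of all sets). Olfactory receptor sets showed much the same, with 125 of 131 lower, 52.7% wholly below, a median of -0.19 and 29.8% at an unadjusted p under 0.05. The small negative difference of most members is thus one that olfactory receptor sets past the filter share on these arrays. Krt10, one of the widely varying keratins, averaged 102 ± 38.3 (SD, n = 3) in Rag1-/- and 377 ± 269 (SD, n = 2) in Rag1-sufficient samples, a difference of -1.75 ± 0.46 (limma adjusted p = 0.161). Krt14 differed by -1.72 ± 0.44 (limma adjusted p = 0.159), Krt5 by -1.14 ± 0.48 (limma adjusted p = 0.277) and Krt1 by -0.80 ± 0.26 (limma adjusted p = 0.207). Without Rag1-sufficient GFP- replicate 2 these differences were -0.95 for Krt10, -1.19 for Krt14, -0.64 for Krt5 and -0.27 for Krt1, and 5 rather than 18 members had an unadjusted p under 0.05.

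**Figure D4:**
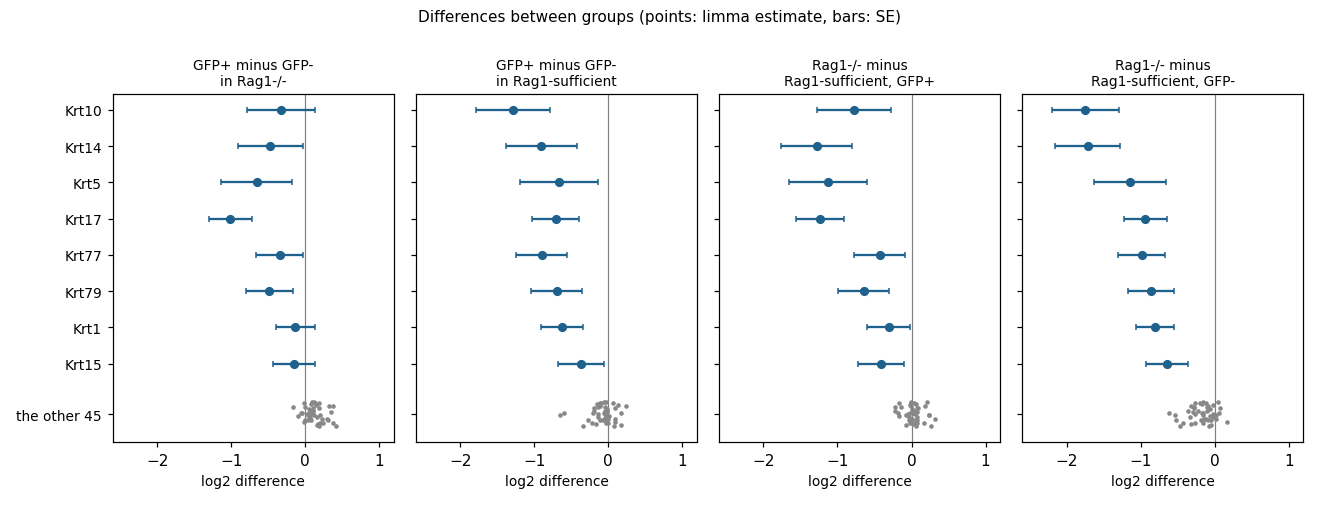
Log2 differences of the 8 widely varying keratins in the 4 comparisons (points, limma estimate; bars, SE), with the other 45 members as grey points in the bottom row. All 8 lie left of 0 in each panel, and the bars of Krt10, Krt1 and Krt15 cross 0 in the first panel. The median of the other members, which spanned less, lies nearer to 0 than that of the 8 in each panel. Single other members lie further out than some of the 8, up to 0.42 in the first panel and down to -0.65 in the second, where Krt15 is at -0.15 and -0.37.

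The gate effect was set against itself between genotypes by the interaction, as Rag1-/- minus Rag1-sufficient. No set of the 17445 passed in limma (0% called), and 5 members had an unadjusted p under 0.05, which is 9.43% of the 53, against 13.6% of all sets and 9.92% of olfactory receptor sets. Krtap5-2 had a difference of gate effects of 0.78 ± 0.18 (limma adjusted p = 0.224) and Krt10 one of 0.97 ± 0.68 (limma adjusted p = 0.542). For Krt5 it was 0.012 ± 0.72 (limma adjusted p = 0.996), so that no difference between the genotypes could be detected for it at this spread.

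Genes of epidermal cells other than keratins were read on the same arrays, from lists of basal adhesion, desmosome and cornified layer genes. Of the 6 desmosome genes past the filter 5 were highest on Rag1-sufficient GFP- replicate 2 (83.3%). So were 4 of 7 basal adhesion genes (57.1%) and 8 of 16 cornified layer genes (50%). That array was highest for 10.4% of all sets past the filter and for 45.8% of olfactory receptor sets. The last 2 shares lie near that of olfactory receptor sets, but these lists held bright genes as well as dim ones. Itga6 and Lgals7 had means over all arrays of 153 and 312, Lama3 and Sprr1b of 48.7 and 42.3. The 95th percentile of the means of all 1035 olfactory receptor sets was 59.3. Such shares do not show how far that array stood above the others. It was also highest for 5 of 8 fibroblast and 6 of 8 mast cell markers. Jup, which encodes plakoglobin of the desmosome plaque, read 295 and 359 in Rag1-/- GFP+ and 317, 356 and 317 in Rag1-/- GFP-, and 209.5 and 253 in Rag1-sufficient GFP+ and 364 and 445 in Rag1-sufficient GFP- samples. Perp, a desmosome membrane protein, read 109.6 and 193 in Rag1-/- GFP+ and 136, 181 and 152 in Rag1-/- GFP-, and 252 and 322 in Rag1-sufficient GFP+ and 245 and 461 in Rag1-sufficient GFP- samples. Lgals7, a galectin of stratified epithelia, read 183 and 182 in Rag1-/- GFP+ and 205, 293 and 349 in Rag1-/- GFP-, and 412 and 387 in Rag1-sufficient GFP+ and 360.4 and 692 in Rag1-sufficient GFP- samples. All 3 had their highest value on the same array as Krt14. Between the GFP+ groups, Perp and Lgals7 were lower in both Rag1-/- samples, as 18.5% of all sets were, whereas Jup was higher in both. The serpin Serpinb5 (246, against 28.7 to 110.1 on the other arrays), the desmosomal cadherin Dsc3 (249, against 36.0 to 99.6) and the keratinocyte differentiation gene Krtdap (218, against 26.9 to 123), chosen after their values were seen, were highest there too. The desmoplakin gene Dsp (281, against 129 to 233) and the cornified envelope precursor Sprr1a (1021, against 215 to 596) were highest there as well. Sfn, an abundant epithelial 14-3-3 protein, was not, at 1154 against 935 to 1355, nor were the basal adhesion genes Dst and Itga6. Of the 29 genes in these 3 lists that passed the filter, 0 were called in any comparison in limma. At an unadjusted p under 0.05 there were, for Rag1 loss in GFP- cells, 2 of 7 basal adhesion genes, 3 of 6 desmosome genes and 6 of 16 cornified layer genes, where 17.3% of all sets and 29.8% of olfactory receptor sets were under it.

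Summed over the lists, desmosome genes read 940.2 and 1049.5 in Rag1-/- GFP+ and 999, 1105 and 973 in Rag1-/- GFP-, and 954 and 1113 in Rag1-sufficient GFP+ and 1175 and 1799 in Rag1-sufficient GFP- samples. Fibroblast markers were highest on the same array, at 2328, but close to Rag1-sufficient GFP+ replicate 1 (2225) and Rag1-/- GFP+ replicate 2 (2153), where Krt14 read 300.5 and 144. Melanocyte markers were highest on Rag1-sufficient GFP+ replicate 2 (644, against 329 to 399), where Krt14 read 277. Mast cell markers were at 10318 and 10482 on the 2 Rag1-sufficient GFP- arrays, where Krt14 read 375 and 782. The summed basal keratins thus shared their highest array with the desmosome and cornified layer lists and the olfactory receptor sum (28938, against 24125 to 26841). The Langerhans cell list was highest there too (5012, against 1985 to 4148), but most of that sum was Cd74 (2855) and H2-Ab1 (1889). In that list Cd207 lay below the filter, at 34.0 to 44.4, and only H2-Ab1 of the 4 genes past the filter was highest on that array. The melanocyte list had another highest array. The fibroblast and mast cell lists had the same highest array as the basal keratins, with other arrays close to it. Whether keratinocyte RNA in the sorted samples gave the keratin signal was not tested.

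**Figure D5:**
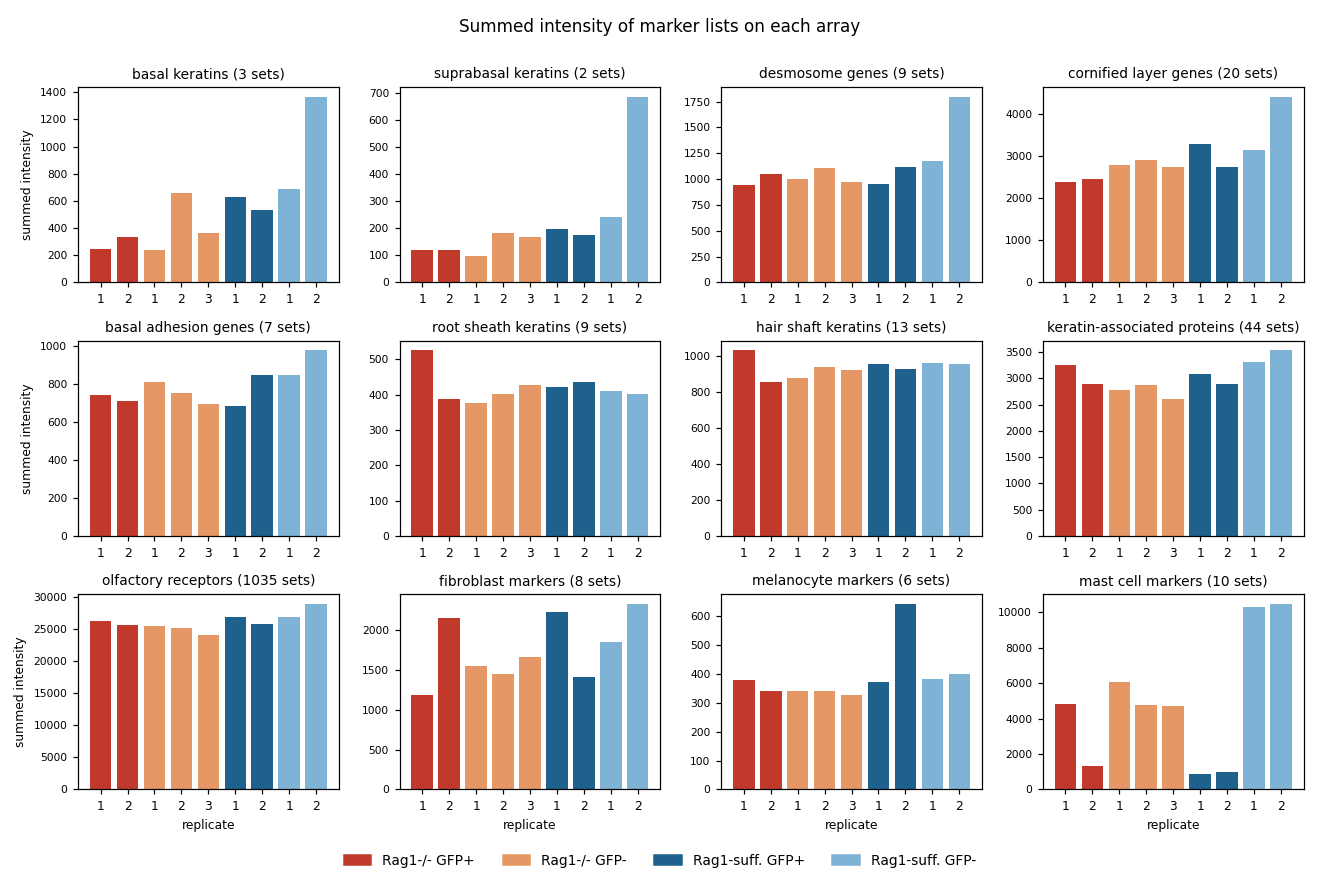
Summed intensity of 12 gene lists on each array (bars, starting at 0), coloured by group, with the replicate number under each bar. Basal keratins (1368) and suprabasal keratins (686) peak on Rag1-sufficient GFP- replicate 2. So do the desmosome, cornified layer, basal adhesion, keratin-associated protein, olfactory receptor, fibroblast and mast cell lists, the last 2 with other arrays close to the peak. Root sheath (526) and hair shaft (1031) keratins peak on Rag1-/- GFP+ replicate 1, and melanocyte markers on Rag1-sufficient GFP+ replicate 2.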

How the data were processed

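Gene expression was measured on 9 one-colour Affymetrix arrays, 1 for each sorted sample. The authors deposited linear intensities, with 1 value for each set on each array and similar medians across arrays. Targets were biotin-labelled single-stranded DNA, per the labels' protocols. MAS5 is the tool listed in the submitters' processing notes, and what it did is not stated there. Genome build, between-array normalization and detection calls are not given in the sources used here, so a filter stood in for detection. Exactly equal values on at least 2 arrays occurred in 12464 of 24922 sets and in 20 of the 53 tested members, which can understate the spread.

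Gene symbols came from the platform annotation (21425 sets with 1 symbol, 1399 with several, 2098 with none), and the gene identifiers of all 96 members matched GRCm38.p6. Values were used as log2(intensity + 1), which understates differences of dim sets. The 30% of sets with the lowest mean log2 value were left out. Groups were compared with limma 3.58.1 in R 4.3.3 (lmFit, eBayes with trend, 5 residual and 3.56 prior degrees of freedom), adjusted over all 17445 sets, and the fit was tested on simulated data. Brightness differs between probe sets for technical reasons, so levels were compared between arrays and not between genes. Precision is limited by the small number of arrays.

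Members and gene lists were chosen with earlier results of these data known. Named in the text are all basal and suprabasal keratins, the brightest members of every other class (up to 4 past the filter, or 2 where none passes), the 3 members with the widest range, and genes among the 3 brightest of each other list where a result turns on them. Other genes, among them Krt25 and Krtap5-2, were named after their values were seen. Alternatives were a pseudocount of 16, no filter, no trend, quantile normalization, array weights, the replicate number as a block and leaving out each array. Same-numbered samples of different groups had correlations of their deviations from the group means between -0.51 and 0.24. In a group of 2 the deviations mirror each other, so these correlations are not all independent and cannot exclude pairing. The numbers were not taken to pair samples.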

Additional observations from a re-analysis of the deposited data

How the results depend on the processing

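The count of members past the threshold was 0 in each of the 5 comparisons, and stayed 0 with a pseudocount of 16, no filter, no trend, quantile normalization and the replicate block. With array weights it was 2 for the gate in Rag1-sufficient mice and 4 for Rag1 loss in GFP- cells, all of them Krtap5 sets, while the count over all sets moved to 1290 and 1168, against 140 and 25. Leaving out single arrays gave 0 to 1 for the gate in Rag1-sufficient mice, the 1 being Krtap5-2 without Rag1-/- GFP- replicate 3, and 0 in the other 4 comparisons. Where this left a group with 1 array, that array was assumed to vary like the other groups. The replicate block, in which samples share only a number, gave 0 members in every comparison, and called 73 rather than 140 of all sets for the gate in Rag1-sufficient mice, 2 rather than 43 for Rag1 loss in GFP+ and 6 rather than 25 in GFP- cells. Among the 9 members refitted under each setting, the directions that turned were mostly those of the interaction. Krt5 turned to -0.34 with array weights and -0.042 with the replicate block. Over the fits that each left out 1 array the interaction ranged from -0.49 to 0.51 for Krt5, from -0.094 to 0.96 for Krt14, from -0.16 to 0.61 for Krt15, from -0.041 to 1.03 for Krt1, from -0.70 to 0.10 for Krt17 and from -0.36 to 0.78 for Krt79. The low ends were without Rag1-sufficient GFP- replicate 2 and the high ends without Rag1-sufficient GFP- replicate 1. The Krt15 gate difference turned to 0.087 in Rag1-/- mice without GFP- replicate 2, against -0.39 without GFP- replicate 1, and to 0.013 in Rag1-sufficient mice without GFP- replicate 2, against -0.76 without GFP- replicate 1. The median gate difference of the members in Rag1-/- mice was 0.08, and -0.01 without GFP+ replicate 1. The cause was not tested. Groups of 2 or 3 arrays and the lack of detection calls limit what can be said of members near the filter limit.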
